A study of Mus musculus with 18 samples.

Results

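Genes of neutrophil secondary granules and of late neutrophil maturation were followed across mouse basophils, basophils cultured with or without deletion of Cebpa, and mast cells. The set holds 7 genes of the 19084 named on the array, taken by symbol: Camp, Ngp, Ltf, Lcn2, S100a8, S100a9 and Retnlg. Each had 1 probe, so no choice between probes was needed. The probe of S100a8 did not rise above background on any array, which leaves 6 genes with usable levels.

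Neutrophils store antimicrobial proteins in granules that form one after another during maturation. Primary granules, with myeloperoxidase and elastase, form in promyelocytes, and secondary granules, with lactoferrin and cathelicidin, form in myelocytes. Members of the C/EBP family of transcription factors act along this path: C/EBP-alpha is needed for the early granulocyte steps and C/EBP-epsilon for the secondary granule genes. Basophils are rare granulocytes that release histamine and interleukin-4 and carry the high-affinity IgE receptor, as do mast cells of the tissues.

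There were 6 groups of 3 arrays, and the labels give strain C57Bl/6 for the mice. Fresh basophils came out of the bone marrow of mice given, 3 days before, interleukin-3 (IL-3) in complex with an antibody against it. Mast cells were grown from bone marrow for 4 weeks in 20 ng/ml IL-3. The remaining 4 groups held purified basophils after 5 days of culture, again with IL-3 at 20 ng/ml, from mice that were Cebpa +/+ or Cebpa f/f, a form of the gene that Cre recombinase can delete. All of these carried RosaYFP/creER, a reporter and a Cre that 4-hydroxytamoxifen activates, so the +/+ cells had the same Cre. One group of each genotype had 100 nM 4-hydroxytamoxifen for the 5 days of culture, and one had none. Whether the 3 arrays of a group stand for separate mice or cultures is not in the labels; the p-values therefore cover only the spread between these arrays, which may be technical.

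All 14 measured genes of the fixed list of basophil markers were above background in the fresh basophils, against 12 of 14 in mast cells. They summed to 286186 to 297349 in fresh basophils and to 127140 to 132223.5 in mast cells. Mast cell markers summed to 198712 to 203380 in mast cells and to 63404 to 66442 in fresh basophils. Cpa3 stands on both lists. Cebpa itself checked the labels. Its normalized intensity was 69.1, 69.4 and 57.8 in treated f/f cells and 2973, 2822 and 2539 in treated +/+ cells. In untreated f/f cells it was 1055, 935 and 959, and in untreated +/+ cells 2280, 2602 and 2226. Cebpa was thus 33.6-fold lower in treated f/f than in treated +/+ cells (adjusted p = 1.99e-11, limma) and already 2.4-fold lower in untreated f/f than in untreated +/+ cells (adjusted p = 4.67e-06). Median intensities of the deposited arrays lay between 24 and 42, and 47.3% to 54.8% of probes on an array exceeded 30. A group whose 3 arrays all read under 30 is called at background here. The precision is limited by how few arrays a group has.

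The stretches upstream of the genes show where letters of the C/EBP recognition sequence lie. The 250 bases before the annotated start of each gene were taken from RefSeq (build GRCm38.p6), where all 7 genes matched. Those of Ngp, Ltf, Lcn2 and S100a9 are shown because these 4 genes changed most between treated f/f and treated +/+ cells. That of Camp is shown because it changed less. Retnlg, which changed least of the 6 detected genes, is not shown. Capitals mark matches to TTNNGNAA or its reverse complement, and the sequences run 5′ to 3′ on the strand of the gene.

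Ngp, chr9:110419558-110419807, plus strand: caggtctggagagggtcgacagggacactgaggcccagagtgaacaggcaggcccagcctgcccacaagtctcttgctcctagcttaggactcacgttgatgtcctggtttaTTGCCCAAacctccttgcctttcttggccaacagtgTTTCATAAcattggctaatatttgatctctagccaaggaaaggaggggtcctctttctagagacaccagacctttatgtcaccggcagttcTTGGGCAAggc

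Ltf, chr9:111019042-111019291, plus strand: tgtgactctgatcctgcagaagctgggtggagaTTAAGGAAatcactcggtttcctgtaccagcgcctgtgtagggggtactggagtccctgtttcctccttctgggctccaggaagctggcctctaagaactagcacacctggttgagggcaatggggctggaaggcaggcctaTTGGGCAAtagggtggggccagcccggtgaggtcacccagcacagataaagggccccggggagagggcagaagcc

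Lcn2, chr2:32387740-32387989, minus strand: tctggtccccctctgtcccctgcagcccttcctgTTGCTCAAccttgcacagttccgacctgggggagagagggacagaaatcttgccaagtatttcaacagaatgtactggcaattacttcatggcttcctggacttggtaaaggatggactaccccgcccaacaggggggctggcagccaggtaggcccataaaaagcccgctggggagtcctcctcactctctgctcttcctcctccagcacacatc

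S100a9, chr3:90695722-90695971, minus strand: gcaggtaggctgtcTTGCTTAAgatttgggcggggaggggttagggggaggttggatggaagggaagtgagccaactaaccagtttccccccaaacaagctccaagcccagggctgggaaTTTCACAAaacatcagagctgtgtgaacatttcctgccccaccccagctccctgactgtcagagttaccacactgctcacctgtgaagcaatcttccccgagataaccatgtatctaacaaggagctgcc

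Camp, chr9:109849457-109849706, minus strand: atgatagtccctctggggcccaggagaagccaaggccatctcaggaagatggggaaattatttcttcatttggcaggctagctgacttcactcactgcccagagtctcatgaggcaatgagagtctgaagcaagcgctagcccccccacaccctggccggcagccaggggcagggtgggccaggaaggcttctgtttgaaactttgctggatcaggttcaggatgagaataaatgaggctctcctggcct

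Ngp held 3 such matches, Ltf and S100a9 held 2 each, Lcn2 held 1, and Camp held none. Retnlg and S100a8, whose windows are not printed, held 1 each, so the gene that changed least also has a match. Among all 7 genes 6 had a match, against 36.8% of 32851 mouse promoter windows of the same length. TTGGGCAA, chosen after it was seen, stands in the windows of Ltf and Ngp, in Ngp on both strands, and in 0.709% of all windows. The PU.1 core GAGGAA, searched on both strands, was in the windows of 3 of the 7 genes, Ltf, Lcn2 and S100a8, against 23.3% of all windows. The RUNX core TGTGGT was in the window of S100a9 and in 14% of all windows. No capital stretch overlaps a PU.1 or RUNX match. These are matches of letters, and binding was not measured.

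**Figure D1:**
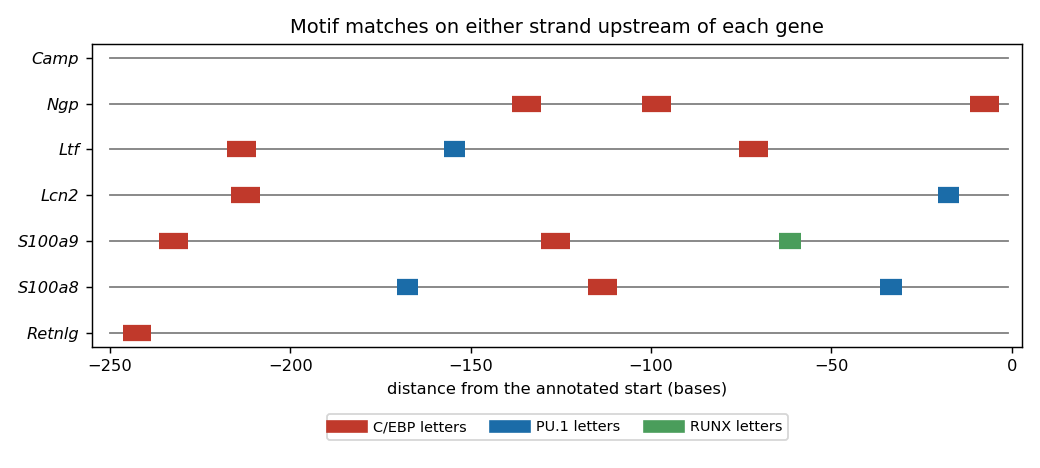
Positions of C/EBP (TTNNGNAA), PU.1 (GAGGAA) and RUNX (TGTGGT) letters on either strand, in bases from the annotated start, for the 7 genes. Ngp has 3 C/EBP matches, the nearest ending 4 bases before the start, and the line of Camp carries no match of any kind.

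Camp encodes the precursor of cathelicidin, a membrane-disrupting peptide. Its normalized intensity was 13885, 15202 and 15202 on the 3 arrays of fresh basophils. In untreated +/+ cultures it was 133, 132 and 135, and in treated +/+ cultures 101, 94.6 and 89.9. The fresh cells stood far above every other group, with no overlap. It was 81.4, 88.1 and 98.5 in untreated f/f cultures and 57.4, 57.3 and 51.8 in treated f/f cultures. In mast cells it was 27.8, 18.5 and 41.9, around the background limit. None of the other groups exceeded 0.902% of the mean of fresh basophils.

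Ngp encodes neutrophilic granule protein, a relative of the cathelicidins in the cystatin-like family. It read 603, 537 and 626 in fresh basophils. It was the one gene of the set that was higher in treated than in untreated +/+ cultures, at 98.5, 101 and 106 against 63.9, 73.1 and 69.5. Untreated f/f cultures, at 27.4, 36.2 and 29.8, stood at the background limit. Treated f/f cultures, at 13.6, 16 and 16.7, and mast cells, at 11.9, 17.1 and 15.2, were under it on every array.

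Ltf encodes lactoferrin, which binds iron, and Lcn2 encodes lipocalin-2, which binds the iron carriers that bacteria release. Ltf read 9646, 10070.5 and 9362.5 in fresh basophils. It was 960.1, 871 and 856 in untreated +/+ and 693, 612 and 604 in treated +/+ cultures. The f/f cultures lay below, at 254, 251 and 246 without and 170.1, 195 and 163 with the drug. Mast cells, at 179.7, 173 and 164, overlapped with the treated f/f cultures.

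Lcn2 followed another order. It read 3576, 3025 and 2939 in fresh basophils and was slightly higher in untreated +/+ cultures, at 3976, 4128 and 4014. Treated +/+ cultures, at 2640.4, 3146 and 2899.5, overlapped with the fresh cells. The f/f cells were lower, at 2037, 1931 and 2189.7 untreated and 599, 565 and 634 treated. In mast cells Lcn2 was 40.4, 40.5 and 39.3, still above the background limit.

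S100a8 and S100a9 encode the subunits of calprotectin, an abundant calcium- and zinc-binding alarmin of the neutrophil cytosol. The deposited values of the S100a8 probe lay between 0 and 11 on all 18 arrays, so no fold is given for it. S100a9 read 23921, 23921 and 24379.8 in fresh basophils. It was 6856, 7938 and 6331 in untreated and 6335, 6307 and 6489.5 in treated +/+ cultures, which overlapped. In f/f cultures it was 2796, 2506 and 2947 without and 899.6, 899.8 and 1069 with the drug, and in mast cells 136, 119 and 117.

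Retnlg encodes resistin-like gamma, a secreted cysteine-rich protein of myeloid cells. It read 12133, 12588 and 13249 in fresh basophils, and 12319.5, 12789 and 12184 in untreated +/+ cultures, which overlapped with them. Treated +/+ cultures stood far below the untreated ones, at 1729, 1739 and 1646. Untreated f/f cultures, at 2325, 1830.3 and 1916, were just above these, and treated f/f cultures, at 1220.2, 1199 and 1491, just below. In mast cells Retnlg was 13.2, 9.83 and 4.78, under the background limit.

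**Figure D2:**
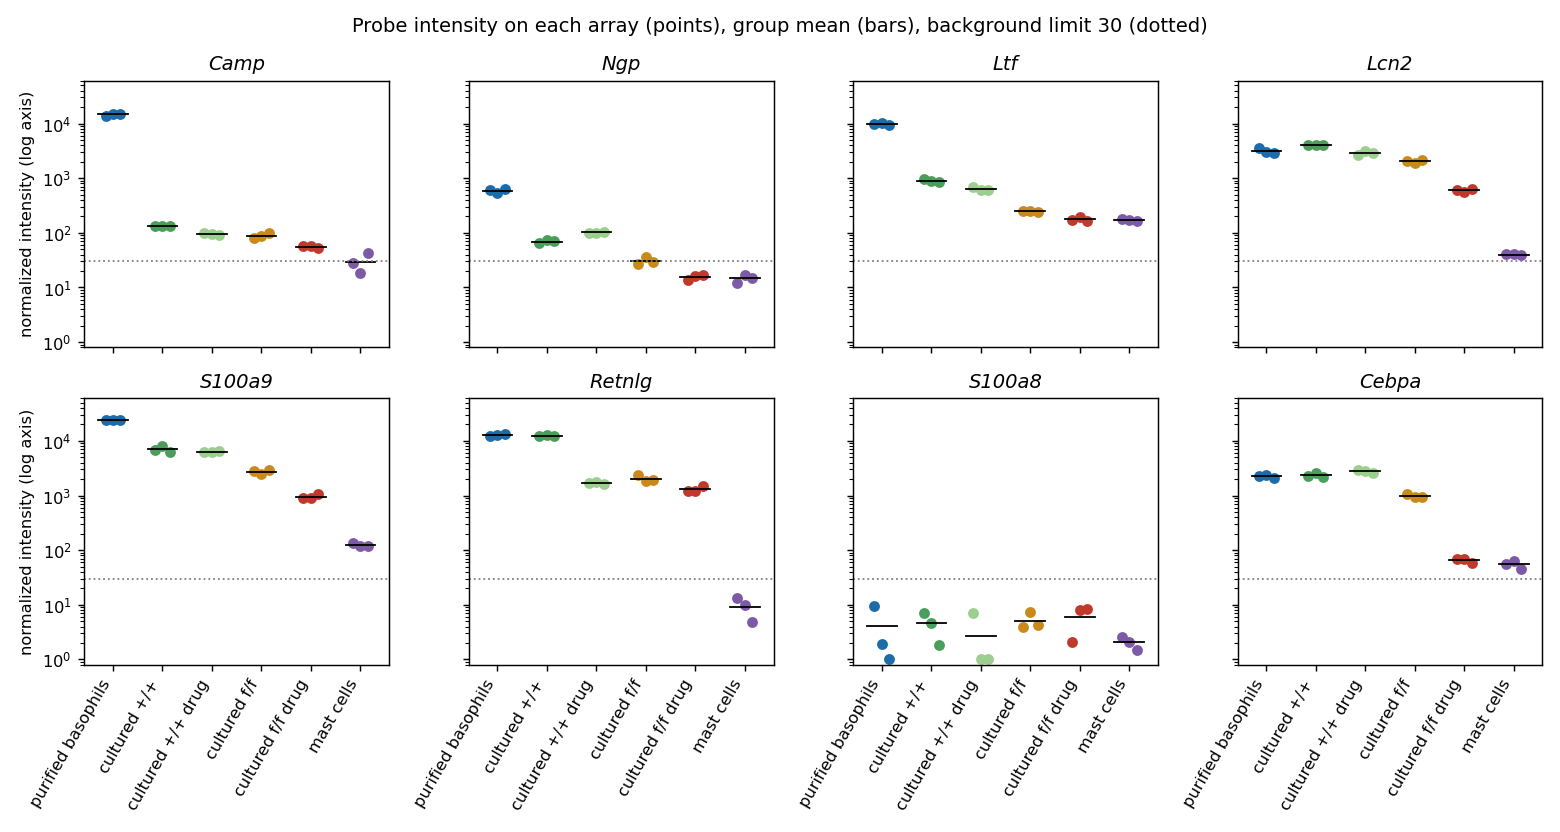
Normalized intensity (log axis) of each gene of the set and of Cebpa on each of the 18 arrays, by group, with group means as bars; readings under 1 are drawn at 1 and the dotted line is the background limit of 30. Camp drops from 13885 or more in fresh basophils to 135 or less in every other group, Retnlg drops between untreated and treated +/+ cultures, and S100a8 stays under the limit throughout.

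Groups were ordered by mean for each of the 6 genes, and neighbours were compared in 1 limma fit over all 18 arrays. Of 30 neighbouring pairs, 23 passed at an adjusted p under 0.05. Over all probes, the share past the test in either direction was 34.9% for fresh against untreated +/+ cells and 39.8% for fresh against treated +/+ cells. Among cultured groups it was 21.3% for the drug in +/+, 30% for treated +/+ against untreated f/f, and 19.6% for the drug in f/f. It was 15.8% for the genotypes without the drug and 30.7% with it, and 35.4% for treated f/f cells against mast cells. These shares are high, so passing the test is common for any gene here.

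The 7 pairs that did not pass show where the order is not settled. For Camp these were treated +/+ and untreated f/f cultures (adjusted p = 0.742), and for S100a9 the treated and untreated +/+ cultures (adjusted p = 0.4). For Ltf they were treated f/f cultures and mast cells (adjusted p = 0.869), and for Ngp the same groups, both at background (adjusted p = 0.813). For Lcn2 they were fresh basophils and treated +/+ cultures (adjusted p = 0.292). Retnlg had a pair at each of 2 heights: fresh basophils with untreated +/+ cultures (adjusted p = 0.913), and untreated f/f with treated +/+ cultures (adjusted p = 0.169).

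Fresh basophils were compared with mast cells to describe how far these neutrophil genes differ between both IgE receptor-bearing cell types. Only the mast cells were cultured and only the fresh basophils came from treated mice. Neither can be told apart from cell type here. Camp was 341-fold higher in fresh basophils than in mast cells, but 3.36-fold higher in untreated +/+ cultures than in mast cells. Lcn2 went the other way, at 59.4-fold and 72.3-fold. Of the 7 genes 6 were higher in fresh basophils and 0 lower. Of all probes, 17.1% were higher and 20.7% lower. The median log2 fold change of the 7 probes was 5.89, against -0.044 over all probes. Without normalization between arrays the share of higher calls over all probes was 78.2% in place of 45.2%.

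Among the granule proteins, Camp differed by 8.41 ± 0.18 on the log2 scale (SE, n = 3 against 3; adjusted p = 1.28e-08, limma). Lcn2 differed by 5.89 ± 0.11 (adjusted p = 7.16e-09) and Ltf by 5.71 ± 0.092 (adjusted p = 5.14e-09). S100a9 differed by 7.41 ± 0.097 (adjusted p = 3.49e-09). Ngp and Retnlg were at background in mast cells, so their differences are bounds. Ngp was at least 20.8-fold and Retnlg at least 437-fold higher in fresh basophils. All fold changes other than bounds are on the log2(intensity + 16) scale, on which changes of dim genes come out too small. Bounds are taken from intensities with no 16 added. Each comparison was normalized over its own arrays, so its group means differ slightly from the intensities given above.

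Other genes of the neutrophil program were also higher in fresh basophils. Of 21 other secondary and tertiary granule genes measured, 17 were higher and 1, Arg1, was lower (median 2.9). Mmp9, the gelatinase of tertiary granules, differed by 5.09 ± 0.12 (adjusted p = 2.3e-08, limma) and Mmp8, the neutrophil collagenase, by 2.47 ± 0.14 (adjusted p = 3e-06). Of 19 late maturation genes 16 were higher and 1, Csf2rb, was lower (median 3.67). Csf3r, the receptor of the granulocyte growth factor, was at least 11.6-fold higher, and Cebpe at least 28.5-fold higher. Of 13 primary granule genes 7 were higher and 2 lower (median 1.17). Mpo, myeloperoxidase, differed by 7.31 ± 0.096 (adjusted p = 3.49e-09) and Elane, elastase, by 3.04 ± 0.24 (adjusted p = 2.1e-05).

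Markers of other cell types moved with this comparison. All 12 measured neutrophil markers outside the set were above background in fresh basophils, against 7 of 12 in mast cells. These 12 also stand in the granule and maturation lists above, so here and in later comparisons they are no separate support. Their summed intensity was 56428 to 61230 in fresh basophils and 6129 to 7463 in mast cells, and Mpo alone read 31197 to 34255 in the former. Ctsg alone, left out after its values were seen, read 5581 to 6952 in mast cells, and without it the other 11 markers summed to 42981 to 45972 in fresh basophils and 503 to 548 in mast cells. Ly6g, the usual surface marker of neutrophils, was not analysed here. The 7 eosinophil markers summed to 48916 to 50273 against 632 to 727, and the 13 monocyte and macrophage markers to 35021 to 36763 against 21579 to 24122. Of these 13 markers 10 were higher and 3 lower in fresh basophils (median 2.36). All 13 were above background in fresh basophils, against 6 in mast cells. Of the 7 eosinophil markers 6 were higher and 1 lower. The 5 erythroid markers summed to 2249 to 2321 against 874 to 991, with 4 higher and 0 lower. The 8 B cell markers summed to 1619 to 1783.5 against 487 to 542, with 3 higher and 0 lower. The 8 T and NK cell markers summed to 3904 to 4347 against 126 to 138, with only 2 higher and 1 lower. The part of other cells in these differences was not tested. In bulk RNA, fewer cells of a type and less RNA per cell cannot be told apart.

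Fresh basophils and untreated +/+ cultures were set side by side to describe fresh and cultured cells. The treatment of the mice, the RosaYFP/creER alleles and possibly the array batch differ between them as well, and these cannot be told apart from the culture. Of the 7 genes 4 were higher in the fresh cells and 1 was lower. Of all probes 17.6% were higher and 17.3% lower in the fresh cells, with 50.4% of calls higher, or 62.7% with median scaling and 64.4% without normalization.

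The size of the difference varied widely between genes. Camp was 6.63 ± 0.13 higher in fresh cells on the log2 scale (adjusted p = 7e-16, limma), Ltf 3.41 ± 0.085 (adjusted p = 9.61e-15) and Ngp 2.83 ± 0.094 (adjusted p = 3.08e-13). S100a9 was 1.78 ± 0.099 higher (adjusted p = 2.25e-10). Cultured +/+ cells thus stood at 0.902% of the mean Camp intensity of fresh cells, 9.24% for Ltf, 11.7% for Ngp and 29.3% for S100a9. Retnlg stood at 98.2%, and its difference of 0.025 ± 0.12 did not pass (adjusted p = 0.913). Lcn2 stood at 127%, a difference of -0.35 ± 0.091 (adjusted p = 0.00584) that no longer passed with median scaling (adjusted p = 0.44) or without normalization (adjusted p = 0.377).

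Between the same groups Mpo differed by 5.34 ± 0.089 (adjusted p = 5.76e-17, limma), Mmp9 by 4.42 ± 0.1 (adjusted p = 4.56e-15) and Cebpe by 2.05 ± 0.13 (adjusted p = 8.84e-10), all higher in the fresh cells. Cxcr2, the chemokine receptor of mature neutrophils, went the other way: it read 1014 ± 24.5 in fresh cells and 4972 ± 246 in untreated +/+ cultures (SD, n = 3). Padi4, the enzyme that citrullinates histones in neutrophils, read 4851.5 ± 322 and 6439.5 ± 543. Both passed the test (adjusted p = 5.92e-13 and 0.00858, limma). Summed neutrophil markers were 56428 to 61230 in fresh cells and 19182.5 to 21000.4 in these cultures, with 12 and 9 of 12 above background. Without Ctsg they were 42981 to 45972 and 12452 to 13719. Summed eosinophil markers were 48916 or more in fresh and 4967 or less in cultured cells, and monocyte and macrophage markers 35021 or more and 18242 or less. Of the 13 monocyte and macrophage markers, however, 7 were higher and 5 lower in the fresh cells (median 0.42). T and NK cell markers were 3904 to 4347 and 299.6 to 330.2, with 2 of 8 higher and 1 lower in the fresh cells. Erythroid markers were 2249 to 2321 and 219 to 256, with 5 of 5 higher in the fresh cells. Mast cell markers were 63404 to 66442 and 81461 to 83526, with 10 of 12 lower in the fresh cells. Basophil markers were 286186 to 297349 and 297908 to 300222, with 7 of 14 higher and 3 lower in the fresh cells. The part of other cells in the differences of the granule genes was not tested.

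Treated f/f cells against treated +/+ cells is the comparison of cells with and without Cebpa in which both sides received the drug. Of the 7 genes 6 were lower in f/f cells and 0 higher. Of all probes 14.6% were lower and 15.4% higher, so 51.4% of calls were higher, or 62% without normalization. The median log2 fold change of the 7 probes was -1.74, against -0.004 over all probes.

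S100a9 changed most, by -2.74 ± 0.11 (SE, n = 3 against 3; adjusted p = 3.47e-09, limma), from 6253 ± 84.8 to 923 ± 95.1 (SD). Lcn2 changed by -2.25 ± 0.091 (adjusted p = 4.36e-09), from 2818 ± 247 to 581 ± 32.7. Ltf changed by -1.74 ± 0.093 (adjusted p = 4.03e-08). Ngp fell to background and was at least 3.36-fold lower (adjusted p = 1.51e-08). The arrays of both groups did not overlap for any of these.

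Camp and Retnlg changed least. Camp changed by -0.63 ± 0.085 (adjusted p = 0.000109, limma), from 94.4 ± 5.26 to 55.2 ± 3.2 (SD), both far under its level in fresh cells. Retnlg changed by -0.39 ± 0.11 (adjusted p = 0.0183), and this call is not firm. It was lost with median scaling (adjusted p = 0.0837), without normalization (adjusted p = 0.109), without treated +/+ replicate 1 (0.0532) or 2 (0.0537), and without treated f/f replicate 1 (0.0698) or 2 (0.0733).

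**Figure D3:**
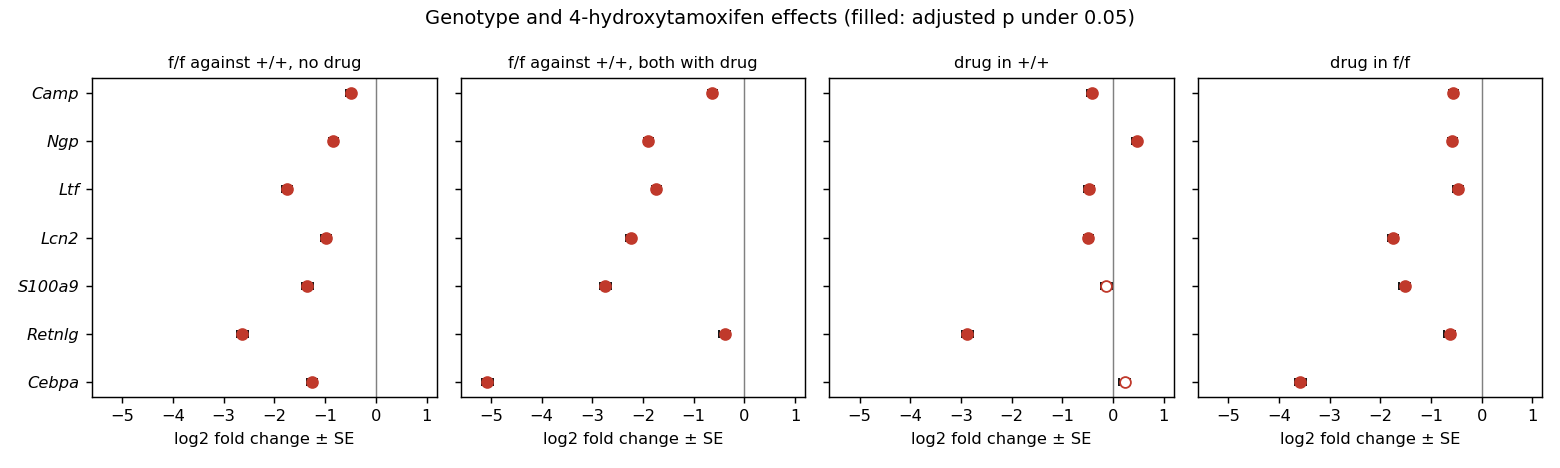
Log2 fold change ± SE of each detected gene of the set and of Cebpa for genotype without drug, genotype with drug, drug in +/+ and drug in f/f cells; filled points passed at an adjusted p under 0.05. Of the genes of the set, Lcn2 and S100a9 lie farthest left in both comparisons that contain treated f/f cells, where Cebpa lies further left still. Retnlg lies farthest left without the drug and for the drug in +/+ cells.

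Other neutrophil genes were described with lists put together from textbook roles. Of 21 other secondary and tertiary granule genes, 12 were lower and 2 higher in treated f/f cells (median -0.49). Itgam, the alpha chain of the Mac-1 integrin, changed by -2.54 ± 0.092 (adjusted p = 1.71e-09, limma) and Pglyrp1, a peptidoglycan-binding granule protein, by -2.48 ± 0.11 (adjusted p = 9.62e-09). Cd177 is counted among those lower although it was at background in both groups. The genes that were higher were the proteases Mmp8, by 0.42 ± 0.1 (adjusted p = 0.00723), and Mmp9, by 0.65 ± 0.096 (adjusted p = 0.000235). They thus went against the direction of the 6 detected genes.

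Of 19 late maturation genes 13 were lower and 2 higher (median -0.64). Cxcr2 changed by -4.07 ± 0.076 (adjusted p = 1.51e-11, limma) and Padi4 by -3.00 ± 0.092 (adjusted p = 3.9e-10). The C-type lectin receptors Clec4d and Clec4e changed by -2.92 ± 0.1 and -2.53 ± 0.087. Il1r2, the decoy receptor of interleukin-1, rose by 1.07 ± 0.092 (adjusted p = 2.53e-06). Csf3r, at background in treated f/f cells, had an adjusted p of 0.0799.

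The primary granule list divided. Of its 13 measured genes 5 were lower and 3 higher (median -0.05). Mpo changed by -3.69 ± 0.095 (adjusted p = 1.46e-10, limma), Prtn3 by -2.83 ± 0.13 and Ms4a3 by -2.29 ± 0.091, and Elane was at least 3.27-fold lower. Ctsg, cathepsin G, rose by 0.99 ± 0.14 (adjusted p = 0.000124) and Cst7, an inhibitor of cathepsins, by 1.06 ± 0.09 (adjusted p = 2.39e-06).

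Among 21 regulators of granulocyte development 8 were lower, Cebpa included, and 7 higher (median -0.22). Id1 changed by -3.73 ± 0.11 (adjusted p = 3.81e-10, limma), Klf5 by -2.87 ± 0.12 and Cebpb by -0.81 ± 0.12. Cebpe, the family member tied to secondary granules, rose by 0.64 ± 0.12 (adjusted p = 0.00106), from 131 ± 13 to 213 ± 31.3 (SD). Id2 rose by 1.54 ± 0.12 and Spi1, which encodes PU.1, by 0.66 ± 0.094.

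Relatives of the genes were found in both directions. Of 14 other S100 genes 4 were higher and 1 lower (median 0.13), with S100a4 up by 1.08 ± 0.095 and S100a11 at -0.66 ± 0.094. Of 13 other lipocalin genes 3 were higher and 2 lower (median -0.16). Retnla, the resistin-like gene of alternatively activated macrophages, rose by 0.70 ± 0.13 (adjusted p = 0.00114, limma), and Retn and Retnlb were at background. Trf, transferrin, fell with its relative Ltf and changed by -2.45 ± 0.079 (adjusted p = 6e-10). Of the 2 measured genes of the cystatin family list, Cst3 and Cstb, 1 was lower and 0 higher (median -0.78).

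Of 14 receptors and partners of the proteins of the set, 4 were lower and 3 higher (median -0.07). The lower ones were Cap1, reported as a resistin receptor, at -1.91 ± 0.097, Emb, reported as an S100a9 receptor, at -1.52 ± 0.13, Fpr2, a receptor for cathelicidin, at -1.29 ± 0.1, and Tlr4 at -0.42 ± 0.1. The higher ones were Lrp11 at 1.18 ± 0.11, Slc22a17, reported as a lipocalin-2 receptor, at 0.88 ± 0.16, and Bsg, which binds S100a9, at 0.57 ± 0.098. Lrp11 was listed for lactoferrin, and whether it binds that protein was not tested.

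**Figure D4:**
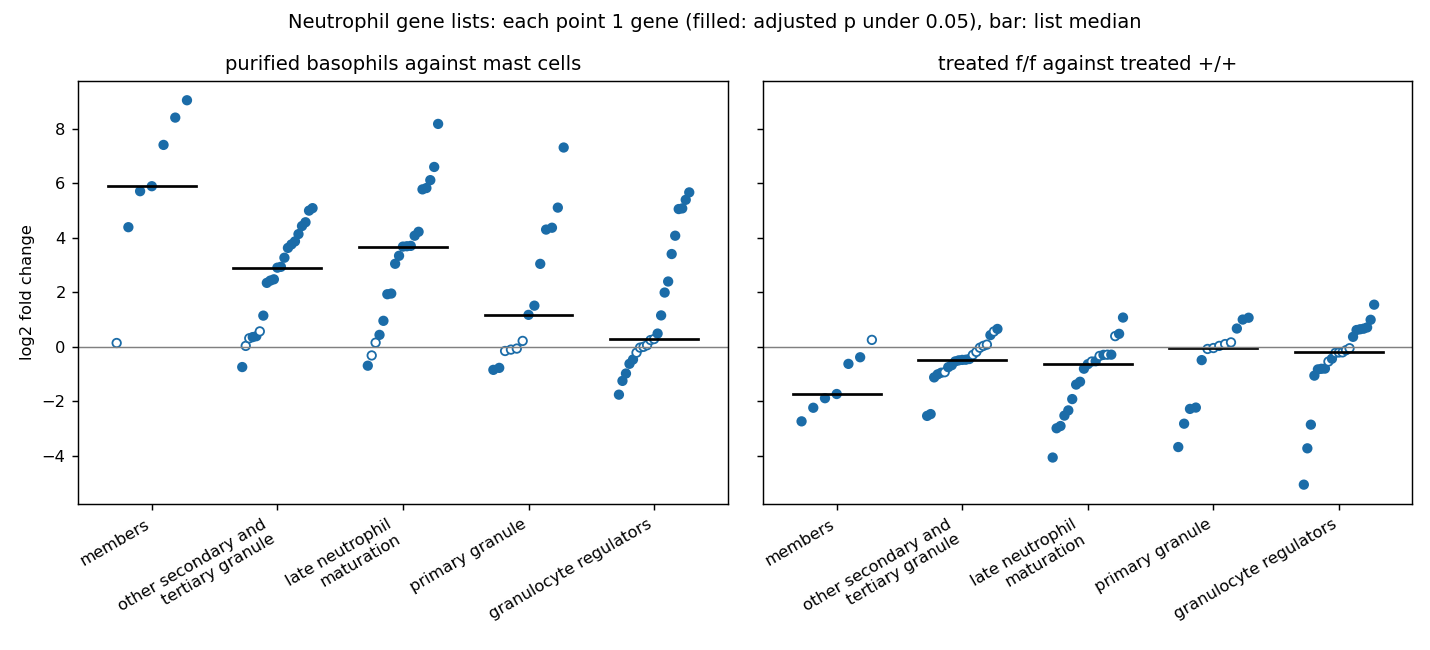
Log2 fold change of each measured gene (point; filled where adjusted p was under 0.05) in the set and in 4 neutrophil gene lists, for fresh basophils against mast cells and for treated f/f against treated +/+ cells, with list medians as bars. The median of the set is 5.89 in the first and -1.74 in the second comparison, and the lists of primary granule genes and regulators spread to both sides of 0 in the second.

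Markers of other cells differed between the treated groups too. Summed neutrophil markers were 15401 to 18689 in treated f/f and 18727 to 20372 in treated +/+ cells, with 8 and 9 of 12 above background, and 8 of the 12 were lower and 3 higher. Ctsg alone read 13885 to 17109 and 7569.5 to 8747 of these sums. The other 11 markers summed to 1412 to 1579.9 in treated f/f and 11158 to 11624.5 in treated +/+ cells. In these sums Cxcr2 had means of 232 and 4185, Padi4 524.5 and 4278, and Mpo 98.9 and 1495. Elane, Itgb2l, Csf3r and Cd177 were at background in the treated f/f cells. Summed monocyte and macrophage markers were 13783 to 14045 and 17498.5 to 18161, with 11 of 13 lower and 2 higher. Mast cell markers were 133451 to 142796 and 90594 to 90903, with 8 of 12 higher and 1 lower. Basophil markers were 247725 to 250744 and 300637 to 309447, with 6 of 14 lower and 3 higher. Summed eosinophil markers were 10893.5 to 11207 and 3859 to 4110, although 4 of the 7 were lower and 3 higher (median -0.65). The part of other cells in the lower granule genes was not tested.

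The genotypes differed without the drug as well, where Cebpa was 2.4-fold lower in f/f cells. Of the 7 genes 6 were lower in untreated f/f cells and 0 higher. Of all probes 6.83% were lower and 8.03% higher. Of these calls 54% were higher, against 73.1% with median scaling and 33.6% without normalization.

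Retnlg changed most here, by -2.63 ± 0.11 (adjusted p = 2.73e-08, limma), from 12209 ± 302 to 1964 ± 262 (SD, n = 3). Ltf changed by -1.75 ± 0.093 (adjusted p = 1.47e-07), against -1.74 with the drug. S100a9 changed by -1.36 ± 0.11 (adjusted p = 4.1e-06), Lcn2 by -0.98 ± 0.091 (adjusted p = 1.46e-05) and Ngp by -0.84 ± 0.09 (adjusted p = 4.84e-05). Camp changed by -0.50 ± 0.085 (adjusted p = 0.00159), a call lost with median scaling (adjusted p = 0.176).

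Beside these, Cebpe rose by 0.57 ± 0.12 (adjusted p = 0.00526, limma), Mmp8 by 0.42 ± 0.1 (adjusted p = 0.016) and Mmp9 by 0.64 ± 0.096 (adjusted p = 0.000625) in untreated f/f cells. Mpo at -0.26 ± 0.095 (adjusted p = 0.0903) and Elane at -0.066 ± 0.09 (adjusted p = 0.724) did not pass. Of the other secondary and tertiary granule genes 3 of 21 were higher and 3 lower, and of the late maturation genes 3 of 19 were higher and 7 lower. Summed neutrophil markers were 14891 to 17209 in untreated f/f and 19182.5 to 21000.4 in untreated +/+ cells, with 2 of 12 higher and 2 lower. Without Ctsg the sums were 7444 to 7980.1 and 12452 to 13719. Cxcr2, with means of 2825 and 4972, and Padi4, with 2936 and 6439.5, made up most of these sums without Ctsg. Of 13 monocyte and macrophage markers 10 were lower and 1 higher (median -1.34, against -0.98 for the 7 genes), and they summed to 13130.2 to 14369.5 and 16769.7 to 18242. Of 7 eosinophil markers 4 were lower and 1 higher, while their sums were 7554 to 8578 and 4801 to 4967. The part of other cells was not tested.

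The drug was compared within each genotype. In +/+ cells, whose Cebpa is not floxed, 4 of the 7 genes were lower and 1 was higher with the drug. The drug also activates Cre in these cells, and effects of the drug and of active Cre cannot be told apart. Of all probes 9.7% were lower and 10.7% higher. The share of higher calls was 52.5%, or 67.9% with median scaling and 22.5% without normalization. Cebpa did not pass in this comparison (0.23 ± 0.1, adjusted p = 0.147).

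Retnlg changed by -2.87 ± 0.11 with the drug in +/+ cells (adjusted p = 4.98e-08, limma), 7.32-fold. Ngp rose by 0.47 ± 0.09 (adjusted p = 0.00293). Lcn2 at -0.49 ± 0.091 (adjusted p = 0.00249), Ltf at -0.48 ± 0.093 (adjusted p = 0.00322) and Camp at -0.42 ± 0.085 (adjusted p = 0.00399) were lower, and none of these 3 passed with median scaling, where their adjusted p was 0.0852, 0.129 and 0.428. S100a9 at -0.13 ± 0.11 did not pass (adjusted p = 0.455), but did without normalization (-0.49, adjusted p = 0.00578). Mpo rose by 0.91 ± 0.095 (adjusted p = 5.65e-05) and Elane by 0.93 ± 0.09 (adjusted p = 3.65e-05), as Ngp did, while Cebpe was lower (-0.41 ± 0.12, adjusted p = 0.0241). Of 12 neutrophil markers 5 were higher and 2 lower with the drug, of 12 mast cell markers 6 higher and 3 lower, and of 13 monocyte and macrophage markers 3 higher and 4 lower.

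In f/f cells, where Cebpa was 11.9-fold lower with the drug (adjusted p = 5.96e-10, limma), 6 of the 7 genes were lower with the drug and 0 higher. Of all probes 9.21% were lower and 9.43% higher, with 50.6% of calls higher, or 35.9% with median scaling. Lcn2 changed by -1.75 ± 0.091 (adjusted p = 7.68e-08) and S100a9 by -1.52 ± 0.11 (adjusted p = 1.09e-06). Retnlg changed by -0.63 ± 0.11 (adjusted p = 0.00162), Camp by -0.56 ± 0.085 (adjusted p = 0.000568) and Ltf by -0.47 ± 0.093 (adjusted p = 0.00349). Ngp was at least 1.03-fold lower (adjusted p = 0.000643), but 2 arrays of untreated f/f cells were already under the background limit. Beside these, 9 of 12 mast cell markers were higher and 1 lower with the drug (median 2.69), with sums of 133451 to 142796 against 77875 to 78669. Of 14 basophil markers 7 were lower and 1 higher, and of 13 monocyte and macrophage markers 7 were higher and 4 lower. Neutrophil markers without Ctsg summed to 1412 to 1579.9 with and 7444 to 7980.1 without the drug. Of the 12 with Ctsg, 5 were lower and 1, Ctsg, higher. In the sums without Ctsg, Cxcr2 had means of 232 with and 2825 without the drug, and Padi4 524.5 and 2936. The part of other cells was not tested. The comparisons described here share arrays with one another, so their values are given side by side and not counted as separate support.

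The interaction, the drug effect in f/f cells minus that in +/+ cells, tests whether the drug acted differently by genotype. It was negative for 3 of the 7 genes and positive for 1. Of all probes 5.81% had a negative and 5.46% a positive call, so 48.5% were positive, or 27.8% with median scaling and 79% without normalization. S100a9 had -1.39 ± 0.15 (adjusted p = 0.000101, limma) and Lcn2 -1.26 ± 0.13 (adjusted p = 5.87e-05). Ngp had -1.05 ± 0.13 (adjusted p = 0.000227), and, with treated f/f cells set to the background limit, -0.61 or less. All 3 genes fell with the drug in f/f cells, while in +/+ cells Lcn2 fell less, Ngp rose and S100a9 did not pass.

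Retnlg had 2.24 ± 0.16 (adjusted p = 2.84e-06, limma), since its drop with the drug was larger in +/+ cells. For Camp (-0.14 ± 0.12, adjusted p = 0.56) and Ltf (0.009 ± 0.13, adjusted p = 0.98) no difference between the drug effects passed, and their small estimates changed sign under some alternatives. Among related genes, Mpo had -3.42 ± 0.13 (adjusted p = 3.18e-08), Cxcr2 -3.26 ± 0.11 (adjusted p = 1.72e-08), Padi4 -1.86 ± 0.13 (adjusted p = 2.75e-06) and Pglyrp1 -2.37 ± 0.16 (adjusted p = 1.81e-06). Cebpe had 0.07 ± 0.16 (adjusted p = 0.852). Of 19 late maturation genes 10 had a negative and 0 a positive call, and of 21 other secondary and tertiary granule genes 6 and 0.

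The cultures were last set against mast cells, in which Ngp and Retnlg were at background. Culture time and possibly the array batch differ here, and the RosaYFP/creER alleles are described only for the cultured basophils. None of these can be told apart from cell type. Untreated +/+ cultures were higher in 6 of the 7 genes and lower in 0, where 16.9% of all probes were higher and 22.3% lower. Of calls 43.1% were higher, or 66.8% without normalization. Lcn2 differed by 6.18 ± 0.091 (adjusted p = 6.75e-18, limma), S100a9 by 5.65 ± 0.099 (adjusted p = 3.98e-17), Ltf by 2.27 ± 0.085 (adjusted p = 5.97e-13) and Camp by 1.75 ± 0.13 (adjusted p = 8.67e-09). Retnlg was at least 414-fold and Ngp at least 2.29-fold higher.

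Treated f/f cultures were higher than mast cells in 4 of the 7 genes and lower in 0, where 15.7% of all probes were higher and 19.6% lower. Of calls 44.5% were higher, or 65.4% without normalization. Lcn2 differed by 3.45 ± 0.091 (adjusted p = 1.19e-14, limma), S100a9 by 2.79 ± 0.099 (adjusted p = 5.79e-13) and Camp by 0.69 ± 0.13 (adjusted p = 0.000563). Retnlg was still at least 43.2-fold higher. Ltf at 0.024 ± 0.085 did not pass (adjusted p = 0.869) but did without normalization (0.30, adjusted p = 0.0196). Ngp was at background in both groups. Cebpa itself read 65.5 ± 6.6 and 55.5 ± 9.13 (SD) in these groups (adjusted p = 0.19).

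Across the 18 arrays the 6 detected genes formed closer and looser pairs. The Pearson correlation of log2 values was 0.953 between Camp and Ltf, 0.933 between Camp and Ngp and 0.982 between Ltf and Ngp. It was 0.938 between Lcn2 and S100a9, 0.945 between Lcn2 and Retnlg and 0.929 between S100a9 and Retnlg. Between both trios it was lowest for Camp and Lcn2, at 0.475, and highest for Ngp and S100a9, at 0.846. Within the 12 arrays of cultured cells the trios were not apart: Camp and Lcn2 had 0.953 and Ngp and S100a9 0.938. There Lcn2 and S100a9 had 0.975 and Ltf and Ngp 0.9, but Camp and Ngp had 0.743. Retnlg had 0.693 with Lcn2, 0.634 with S100a9 and its lowest value, 0.413, with Ngp. The arrays share the same 6 groups and normalization, so these values describe the group pattern and carry no p-value.

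The genes outside the set most like its mean pattern over the 18 arrays were taken from 9330 genes with a mean over 100 in at least 1 group. They were Syndig1 (r = 0.993), Slc40a1 (r = 0.991), Cd5l (r = 0.99), Epb41l3, Alox15, Rnase4, Siglecf, Pld4, Hsd17b1 and H2-Q10 (r = 0.979). Slc40a1 encodes the iron exporter ferroportin, and Alox15 and Siglecf are on the fixed list of eosinophil markers. Syndig1 read 26775 on average in fresh basophils, 5287 in untreated and 3173 in treated +/+ cultures, 1708 in untreated and 691 in treated f/f cultures and 92 in mast cells.

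Single genes had their own nearest patterns. Lcn2 was closest to Padi4 (r = 0.995) and Ldhc (r = 0.994), S100a9 to Anxa3 (r = 0.993) and Siglecf (r = 0.991), and Retnlg to Aldh3b1 (r = 0.994) and Lrp1 (r = 0.99). Il18 was the closest to both Ltf (r = 0.992) and Ngp (r = 0.989). Camp was closest to Cxcl12 (r = 0.991) and Nr4a1 (r = 0.99). Lrp1 read 590.4 on average in untreated and 237 in treated +/+ cultures, against 239 and 224 in f/f cultures.

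Camp, Ngp and Ltf lie on 1 chromosome, 9, with starts 570 kb apart for Camp and Ngp and 599 kb apart for Ngp and Ltf. S100a8 and S100a9 start 26.6 kb apart on chromosome 3. Between Camp and Ltf the RefSeq table (GRCm38.p6) lists 28 other coding genes, of which 17 were above background. In treated f/f against treated +/+ cells 1 of the 17 was higher and 1 lower (median -0.1), and in fresh basophils against mast cells 4 were higher and 1 lower (median -0.17). None of the 17 changed 2-fold in either of these comparisons.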

How the data were processed

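Single-dye arrays of 26423 probes measured RNA of 18 mouse samples; per the labels' protocols, Trizol and RNeasy served for extraction and the dye was a cyanine. The deposited unit is intensity on a linear scale. Between 743 and 1042 values per array were below 0 (minimum -9), so a background had been subtracted. Scanner, software and normalization before deposit are not stated in the labels. The platform annotation named 21876 probes.

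Quantile normalization was run over the arrays entering each comparison: 6 arrays for fresh basophils against mast cells, 12 for cultured groups, and 18 for comparisons across both and for the levels shown. Values were transformed as log2(intensity + 16) and tested two-sided with lmFit and eBayes of limma (version 3.58.1, R 4.3.3). P-values were adjusted after Benjamini-Hochberg across all 26423 probes, with a threshold of 0.05; the code was first tested on simulated data. A probe under 30 on every array of a group counted as at background there, a limit set with the data already known; its fold is at least the ratio of the brighter mean to the dim values raised to 30. A gene with several probes was read on the brightest by mean. The 7 genes were named in every comparison, of each list up to 4 genes by size of change among those that passed, plus Cebpe, Mmp8, Mmp9, Elane, Mpo and Csf3r; others named were picked with their values in view. The genes and lists were chosen with earlier results of these data known. The housekeeping list was read only as a control: in treated f/f against treated +/+ cells 2 of its 5 measured genes were higher and 0 lower. Alternatives were median scaling, no normalization, an offset of 50, leaving out the dimmest 30% of probes, a variance trend, array weights, a replicate block, other sets of arrays in the fit, each array left out, averaged probes and a threshold of 0.01. Promoter windows came from RefSeq and were searched in Python 3.11.15; no protein sequence or genome was used.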

Additional observations from a re-analysis of the deposited data

Results flagged for a closer look

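The drug effect differed between genotypes by the interaction test for 4 of the 7 genes. The difference, f/f minus +/+ on the log2 scale, was -1.26 for Lcn2, -1.05 for Ngp and -1.39 for S100a9, all lowered more by the drug in f/f cells or, for Ngp, lowered there and raised in +/+ cells. For Retnlg it was 2.24, with a 7.32-fold drop in +/+ cells and a 1.54-fold drop in f/f cells. Over the alternatives tried these values lay between -1.46 and -1.02 for Lcn2 and between -1.23 and -0.66 for Ngp. They lay between -1.54 and -1.09 for S100a9 and between 1.98 and 2.42 for Retnlg, and the values of these 4 genes passed the test under each alternative run.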

How the results depend on the processing

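Of the fold changes of the 6 detected genes in the 9 comparisons under the alternatives, 1205 kept their direction and side of the threshold, 12 lost the call, 2 gained it and 11 changed sign. The sign changed only for values that had not passed: Ltf in the interaction was -0.14 with median scaling and -0.062 to 0.07 with 1 array left out, and Camp there was 0.004 without normalization. With 1 array left out Retnlg in fresh against untreated +/+ cells was -0.008 to 0.055, and Ngp and Ltf in treated f/f against mast cells were -0.031 to 0.093 and -0.045 to 0.072. The count of the 7 genes called for the drug in +/+ cells was 2 with median scaling, in place of 5. Called probes were 3047 for the drug in +/+, 3149 for the drug in f/f and 1487 for the interaction with median scaling, against 5396, 4925 and 2976. At an adjusted p under 0.01 they were 3180, 3132 and 1508, and 2303 for the genotypes without the drug in place of 3927. The cause of the changes with scaling was not tested. Another scaling moved the median of all probes by over 0.1: without normalization it was 0.159 in fresh basophils and 0.106 in untreated +/+ cultures against mast cells and 0.116 in the interaction, and with median scaling -0.126 in the interaction. Same-numbered arrays did not deviate together (correlations -0.385 to 0.16 in cultures, -0.174 to -0.00284 in fresh basophils and mast cells), so numbers were not taken as pairs. With the replicate number as a block, 6 of the 7 genes were called for the genotypes with the drug and 7525 probes in place of 7931, and no call of the 7 genes changed in any of the 9 comparisons. Dim genes are limited by background: Ngp and Camp in f/f cells lie within a few fold of it.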
